A study of Rattus norvegicus with 6 samples.

Results

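NF-κB is a family of dimeric transcription factors that carry inflammatory signals to the nucleus. The family examined here comprised 10 genes, 5 that encode the subunits (Nfkb1, Nfkb2, Rel, Rela and Relb), 3 that encode IκB inhibitors (Nfkbia, Nfkbib and Nfkbie), and Tnfaip3 and Birc3, which encode the ubiquitin enzymes A20 and cIAP2. They were taken by gene name from the 33566 genes of the deposited count table, and each name matched a single row. RNA was sequenced from 6 libraries of rBMECs, primary endothelial cells of brain microvessels isolated from the cerebral cortex (by the labels; the study's methods name the forebrain) of Sprague-Dawley rats 18 to 22 days of age. Of these, 3 came from cells given homocysteine (Hcy) and 3 from cells given the sterile water vehicle (Veh), for 24 h. The labels give a dose of 100 μM, while their treatment protocol also mentions a 50 μmol/L solution. Both groups were primary cultures used after 1 passage, purified by a screening solution, and they shared no transgene or other treatment. The series states 3 biological replicates per group, but the sources used here do not say whether libraries came from separate isolations, so the p-values measure the spread between these libraries.

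In resting cells, IκB proteins hold NF-κB dimers in the cytoplasm. Signals from cytokine receptors activate the IKK kinases, IκB is degraded, and the dimers enter the nucleus. Nfkbia, Nfkb2, Relb, Tnfaip3 and Birc3 are textbook targets of NF-κB itself, so the pathway writes its own inhibitors, and in endothelium it is best known for switching on leukocyte adhesion molecules and chemokines. A noncanonical arm uses the Nfkb2 and Relb products.

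Total counts lay between 14024997 and 16764584 per library. The counts of Veh replicate 3 stood apart from those of Veh replicates 1 and 2, with a chi-square per degree of freedom of 27.7 and 24.6 across genes, against 5.52 to 7.39 for the other pairs of libraries of the same group. Results below are therefore also given without this library where that changed the call of a named gene. The libraries carried endothelial markers, with 13 of the 14 listed markers in the table detected and a summed level of 8538 to 10481 CPM (counts scaled to library size with TMM factors) across all 6 libraries, although Cldn5 had 0 counts in each. The Hcy libraries held 10068 to 10481 CPM of these and the Veh libraries 8538 to 9793, and 0 of the markers passed the test described below, in either direction. Pecam1 and Abcb1a, also on this list of 16, matched no row by name and could not be analysed. The microglial and macrophage markers summed to 2.22 to 3.09 CPM, with Ptprc and Cx3cr1 at 0 in every library. Of 11 pericyte and smooth muscle markers, 3 passed the test, the contractile genes Acta2, Tagln and Cnn1, and all 3 fell with Hcy. Their list summed to 680 to 708 CPM in Hcy and 1124 to 1352 CPM in Veh, of which Tagln alone gave 582 and 1071 CPM on average. The other 8 did not pass and lay at or under 2.72 CPM on average in either group, with log2 fold changes above 0 for 6 (among them Pdgfrb, Rgs5 and Cspg4) and below 0 for 2 (Kcnj8 and Myh11). Astrocyte markers summed to 113 to 116 CPM in Hcy and 126 to 150 CPM in Veh, with Aqp4 and Slc1a2 at 0 and Gja1 alone at 115 and 139 CPM on average (edgeR adjusted p = 0.152). Epithelial markers summed to 0.934 to 1.41 CPM in Hcy and 2.91 to 3.57 CPM in Veh, mostly Cldn4, which passed at 0.736 and 2.79 CPM. These 3 sums did not overlap between groups, and each was carried by 1 to 3 genes. The endothelial sum did not overlap either and was the higher in Hcy. Fibroblast markers summed to 44.9 to 68.7 CPM in Hcy and 63.5 to 91.2 CPM in Veh, with overlap. Neuron and oligodendrocyte markers summed to 12.56 to 14.86 CPM in Hcy and 12.30 to 12.59 CPM in Veh, also with overlap. The part of these markers in the results below was not tested. In RNA from whole cultures, fewer cells of a type and less RNA per cell cannot be told apart.

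The stretches before the start sites of 4 members are shown because several of these genes are known to answer to NF-κB through κB sites near their promoters, and Nfkb1 is included as a member with no match. Of the 10 members, 8 had an entry in the RefSeq promoter table (build GRCr8). Relb and Birc3 were the members with no entry. Capitals mark matches to the κB consensus on either strand within the 250 bases before the RefSeq start, and overlapping matches were counted once. The stretches run 5′ to 3′ along the gene, at chr6:78597073-78597322 on the minus strand for Nfkbia, chr1:255108124-255108373 on the plus strand for Nfkb2, chr1:15543980-15544229 on the minus strand for Tnfaip3, and chr2:226805463-226805712 on the minus strand for Nfkb1.
Nfkbia: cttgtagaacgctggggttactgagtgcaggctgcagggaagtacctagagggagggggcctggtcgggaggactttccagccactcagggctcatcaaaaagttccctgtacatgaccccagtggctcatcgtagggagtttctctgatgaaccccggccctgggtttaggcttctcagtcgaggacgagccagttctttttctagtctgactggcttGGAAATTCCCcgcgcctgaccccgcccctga
Nfkb2: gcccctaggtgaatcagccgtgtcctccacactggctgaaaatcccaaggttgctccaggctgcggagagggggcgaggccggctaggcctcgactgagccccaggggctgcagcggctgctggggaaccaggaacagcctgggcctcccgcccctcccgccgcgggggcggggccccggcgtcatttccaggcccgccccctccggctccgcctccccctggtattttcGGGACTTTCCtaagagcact
Tnfaip3: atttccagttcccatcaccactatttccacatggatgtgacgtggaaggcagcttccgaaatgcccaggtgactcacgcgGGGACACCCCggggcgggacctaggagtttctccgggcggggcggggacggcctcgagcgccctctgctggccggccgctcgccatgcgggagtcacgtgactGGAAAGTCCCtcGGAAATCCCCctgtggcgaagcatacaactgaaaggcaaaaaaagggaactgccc
Nfkb1: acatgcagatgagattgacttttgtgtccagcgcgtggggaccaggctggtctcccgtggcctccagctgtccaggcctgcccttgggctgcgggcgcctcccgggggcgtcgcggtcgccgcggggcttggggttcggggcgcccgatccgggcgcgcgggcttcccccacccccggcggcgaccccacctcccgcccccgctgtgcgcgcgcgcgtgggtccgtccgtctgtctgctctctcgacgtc

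The Nfkbia match lay 31 to 22 bases before the start, and the Nfkb2 match 20 to 11 bases before it. Tnfaip3 held 3 matches, and Nfkb1 held 0 in this window. Rel, with 2, and Nfkbie, with 1, also had matches, while Rela and Nfkbib had 0. In all, 5 of the 8 windows held at least 1 match, against 6.33% of the 33469 windows of the same length in the table. Among the 9906 windows of genes tested below, the share was 8.56%. The letters of the Nfkb2 match, GGGACTTTCC, were read from the Nfkb2 window itself, so its own match to them was fixed beforehand. Among the windows of the other members, only that of Tnfaip3 held these letters on either strand. The same letters were found in 0.0956% of all windows and in 0.101% of those of tested genes. A match describes letters and shows no binding.

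Compared per gene length, Rela and Nfkbia were the most abundant members and Rel the least. RPKM (CPM per kilobase of the listed gene length) of Rela was 65.8 ± 2.05 in Veh and 67.7 ± 4.88 in Hcy (SD, n = 3), and that of Nfkbia was 63.5 ± 2.85 in Veh and 53.6 ± 2.62 in Hcy (SD, n = 3). In Veh the libraries of these 2 genes overlapped, whereas in Hcy each Rela library lay above each Nfkbia library. Nfkb2 came next at 25.3 ± 1.38 in Veh and 29.9 ± 1.17 in Hcy (SD, n = 3). Nfkbib, Nfkbie and Nfkb1 followed at means of 19.5 to 22.2 RPKM in Veh and 21.2 to 23.0 in Hcy. Neighbours among these 3 overlapped in both groups, and in Veh the libraries of Nfkb2 also overlapped those of Nfkbib. Relb, Birc3 and Tnfaip3 stood at 15.5 ± 0.146, 13.5 ± 0.640 and 12.0 ± 1.99 RPKM in Veh, and at 19.1 ± 1.70, 17.0 ± 0.681 and 10.3 ± 0.829 in Hcy (SD, n = 3). Birc3 and Tnfaip3 overlapped in Veh but not in Hcy, and Relb and Birc3 in Hcy but not in Veh. Rel was at 1.63 ± 0.101 in Veh and 1.50 ± 0.190 in Hcy (SD, n = 3).

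**Figure D1:**
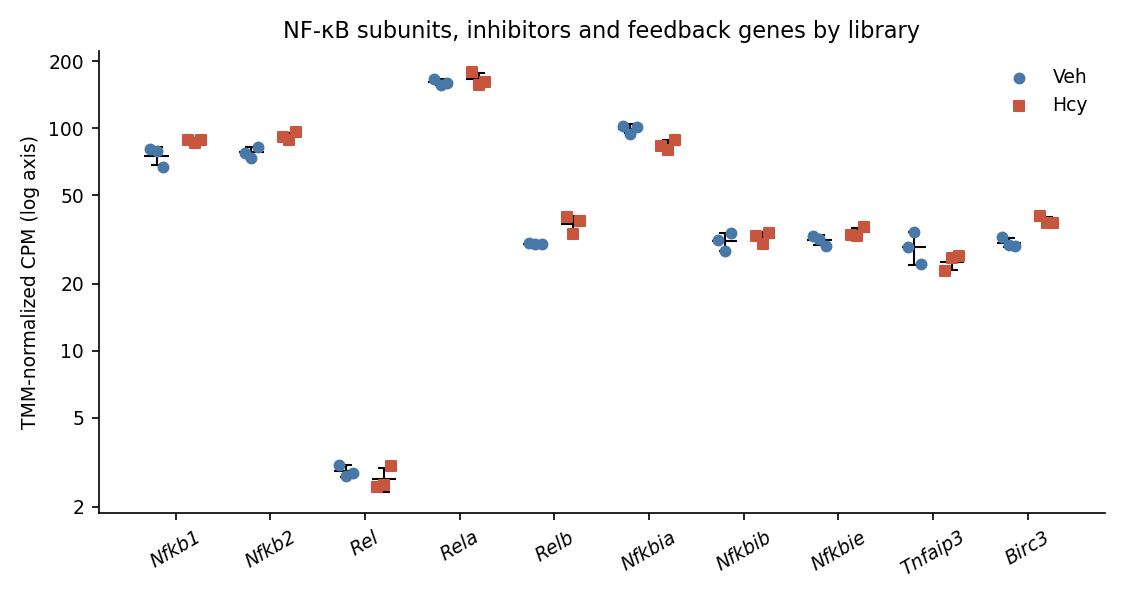
TMM-normalized CPM of the 10 members on a log axis, with 1 point per library (circles for Veh, squares for Hcy) and the mean ± SD of 3 libraries in black. The Hcy points of Nfkb1, Nfkb2, Relb and Birc3 lie above all Veh points, those of Nfkbia lie below them, and the other 5 genes overlap.

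The comparison of Hcy with Veh asks whether this family changed with Hcy at the level of RNA. All 10 members had enough counts to be tested, and 0 passed, which required a p of at most 0.05 in edgeR's quasi-likelihood test after Benjamini-Hochberg adjustment over all genes. Of all 14603 genes tested, 341 passed, or 2.34% (1.32% higher and 1.01% lower in Hcy). DESeq2 also called 0 members, and 4.19% of all genes. Before adjustment, edgeR's p was at most 0.05 for 5 members and for 13.4% of all genes. In those same 5 genes the CPM of the groups did not overlap, as in 20.1% of all genes tested. The members' median log2 fold change was 0.08, with 7 above 0 and 3 below. Over all genes tested the median was -0.02, and 46.9% lay above 0. Estimates ran from -0.24 for Nfkbia to 0.33 for Birc3, and 0 members reached 1 in size, a limit that 0.486% of all genes met together with the adjusted p. When Veh replicate 3 was left out, 2 members passed, Nfkb2 and Birc3, in a fit in which 6.67% of all genes passed.

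Rela encodes p65, the main activating subunit of the canonical arm, and is listed on chromosome 1 from 220992770 to 221003249. Positions of genes here and below are those of the deposited table, in which the last gene of chromosome 1 ends at 282724300, past the end of that chromosome in the build named in the submitters' notes (mRatBN7.2), so their build is not known. Rela had 179, 157 and 161 CPM in Hcy and 166, 157 and 159 CPM in Veh. The groups overlapped, with Hcy replicate 1 highest of all. Its log2 fold change was 0.04 ± 0.08 (SE, edgeR adjusted p = 0.879), and the 95% interval of the fitted fold ran from 0.914 to 1.16. Without Hcy replicate 1 the estimate was -0.02.

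Nfkb1 encodes p105, the precursor of p50, and lies on chromosome 2 from 240773456 to 240866689. It was at 88.9, 85.4 and 88.2 CPM in Hcy and at 80.2, 78.7 and 67.0 CPM in Veh. All Hcy libraries were above all Veh libraries, and Veh replicate 3 was the lowest. The log2 fold change was 0.22 ± 0.09 (SE, edgeR adjusted p = 0.311), which became 0.14 without Veh replicate 3 (adjusted p = 0.235).

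Nfkb2, on chromosome 1 from 266053002 to 266059256, encodes p100, which acts as an inhibitor until it is cut to p52. Its level was 91.3, 88.6 and 95.7 CPM in Hcy and 77.4, 73.7 and 82.2 CPM in Veh. The groups did not overlap, and here Veh replicate 3 was the Veh library nearest to Hcy. The log2 fold change was 0.24 ± 0.08 (SE, edgeR adjusted p = 0.18), a fitted fold of 1.18 with a 95% interval of 1.05 to 1.33. It passed without Veh replicate 3, at 0.28 (adjusted p = 0.0329).

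Relb encodes RelB, the partner of p52 in the noncanonical arm, and lies on chromosome 1 from 80517411 to 80544825. Hcy libraries were at 39.8, 33.5 and 38.3 CPM, and Veh libraries at 30.6, 30.1 and 30.2 CPM. The Veh libraries lay close together and below each Hcy library. Its log2 fold change was 0.29 ± 0.09 (SE, edgeR adjusted p = 0.173), with a 95% interval of the fold from 1.06 to 1.41. Without Veh replicate 3 the adjusted p was 0.0967.

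Rel, which encodes c-Rel, a subunit best known from lymphocytes, is listed on chromosome 14 from 108491069 to 108509892. It had 34, 37 and 51 counts in Hcy and 52, 43 and 41 in Veh, by far the lowest counts of the family. These counts correspond to 2.44, 2.49 and 3.04 CPM in Hcy and 3.09, 2.74 and 2.84 CPM in Veh. The groups overlapped, with a log2 fold change of -0.12 ± 0.21 (SE, edgeR adjusted p = 0.879), and the 95% interval of its fold, 0.662 to 1.28, was the widest among the 10 members. The estimate ran from -0.23 without Hcy replicate 3 to -0.0618 without Hcy replicate 1.

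Nfkbia was the non-overlapping member with lower values in Hcy. It encodes IκBα, the fast feedback inhibitor of the pathway, and lies on chromosome 6 from 76267228 to 76270457. It was at 83.4, 80.1 and 88.3 CPM in Hcy and at 102, 94.2 and 102 CPM in Veh. Every Hcy library was below every Veh library. The log2 fold change was -0.24 ± 0.08 (SE, edgeR adjusted p = 0.173), a fitted fold of 0.845 with a 95% interval of 0.751 to 0.951. With single libraries left out it stayed between -0.28 and -0.21, and its adjusted p was 0.0926 at the lowest.

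Nfkbib and Nfkbie encode IκBβ and IκBε, slower inhibitors of the same dimers. Nfkbib, on chromosome 1 from 86941074 to 86948845, was at 32.9, 30.1 and 33.7 CPM in Hcy and 31.3, 28.0 and 33.8 CPM in Veh. Nfkbie, on chromosome 9 from 17828408 to 17835240, was at 33.3, 32.8 and 36.0 CPM in Hcy and 32.8, 31.9 and 29.7 CPM in Veh. Both overlapped between groups. Their log2 fold changes were 0.05 and 0.11 (edgeR adjusted p = 0.879 and 0.658), with 95% intervals of the fold of 0.889 to 1.21 and 0.944 to 1.24. Leaving out single libraries moved the Nfkbie estimate to between 0.0674 (without Hcy replicate 3) and 0.14, with 0.0715 without Veh replicate 3. The Nfkbib estimate ran from -0.0168 without Veh replicate 2 to 0.12 without Veh replicate 3.

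Birc3 had the smallest p of the family. It lies on chromosome 8 from 6048969 to 6076598, next to its paralog Birc2, and reads of near-identical stretches can have been split between these genes. Its level was 40.2, 37.6 and 37.5 CPM in Hcy against 32.3, 29.9 and 29.7 CPM in Veh. The groups did not overlap, and every Hcy library was the higher. The log2 fold change was 0.33 ± 0.08 (SE, edgeR adjusted p = 0.0925), a fitted fold of 1.25 with a 95% interval of 1.10 to 1.43. DESeq2 gave an adjusted p of 0.068, and without Veh replicate 3 edgeR gave 0.049. Birc2, which encodes the related ligase cIAP1, had a log2 fold change of 0.02. The Birc2 estimate ran from -0.0258 without Hcy replicate 3 to 0.0985 without Hcy replicate 2.

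Tnfaip3, on chromosome 1 from 14402913 to 14412807, encodes A20, which removes activating ubiquitin chains from signalling proteins. It was at 22.8, 26.0 and 26.6 CPM in Hcy and at 29.1, 34.2 and 24.4 CPM in Veh. Veh replicate 3 lay within the range of the Hcy libraries, whereas Veh replicates 1 and 2 lay above it. The log2 fold change was -0.22 ± 0.13 (SE, edgeR adjusted p = 0.545), and it ran from -0.33 without Veh replicate 3 to -0.09 without Veh replicate 2.

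**Figure D2:**
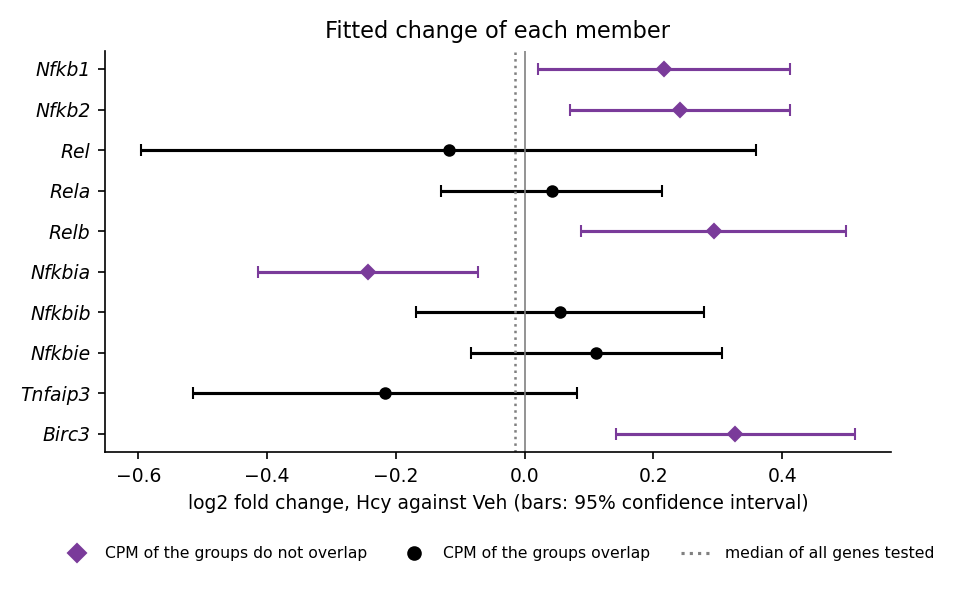
Fitted log2 fold change of each member, Hcy against Veh, with its 95% confidence interval, and the median of all genes tested as a dotted line. Nfkb1, Nfkb2, Relb and Birc3 lie to the right of 0 and Nfkbia to the left with intervals that leave out 0, and 0 of the 10 passed after adjustment.

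The make-up of the family is described by shares and sums of RPKM, without a test. Of all genes tested, 20.1% did not overlap between groups in CPM, so that a lack of overlap is common in these libraries. Among the 3 inhibitors, Nfkbia made up 54.6%, 54.9% and 54.8% of the summed RPKM in Hcy and 60.4%, 60.1% and 60.3% in Veh. The difference of -5.49 percentage points compares with SDs of 0.157 and 0.128 points, and it stayed between -5.56 and -5.41 with any 1 library left out. The inhibitor shares, sums and ratio in this paragraph were computed after the members' values had been seen and carry no test. The 5 subunits summed to 148, 134 and 141 RPKM in Hcy and 131, 125 and 126 RPKM in Veh, with no overlap. The 3 inhibitors summed to 97.6, 93.2 and 103 RPKM in Hcy and 108, 100.2 and 108 RPKM in Veh, with overlap. Inhibitor RPKM per subunit RPKM was 0.660, 0.697 and 0.730 in Hcy against 0.823, 0.799 and 0.852 in Veh. This ratio is one of RNA levels and says nothing of protein amounts. It counts Nfkb1 and Nfkb2 as subunits only, although p100, the Nfkb2 product, acts as an inhibitor until it is cut. The ratio depends on this grouping, and no other grouping was computed.

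Among the subunits, Rela held 48.1% ± 1.50 of the summed RPKM in Hcy and 51.5% ± 0.352 in Veh (SD, n = 3), and the libraries did not overlap. This is a difference in share, since the RPKM of Rela itself was 67.7 in Hcy and 65.8 in Veh with overlap. Relb made up 13.5% ± 0.594 in Hcy and 12.2% ± 0.193 in Veh, again without overlap. The share of Nfkb2 was 21.3% ± 1.03 in Hcy and 19.8% ± 1.16 in Veh, and that of Nfkb1 was 16.1% ± 0.487 and 15.2% ± 1.34. Both overlapped between groups, and the difference in Nfkb1 share, 0.844 points, became 0.0783 points without Veh replicate 3. Rel contributed 1.07% ± 0.144 in Hcy and 1.28% ± 0.0468 in Veh, without overlap (SD, n = 3 throughout). Its means differed by -0.209 points, less than the spread of the Hcy libraries, which ran from 0.933% to 1.22%.

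**Figure D3:**
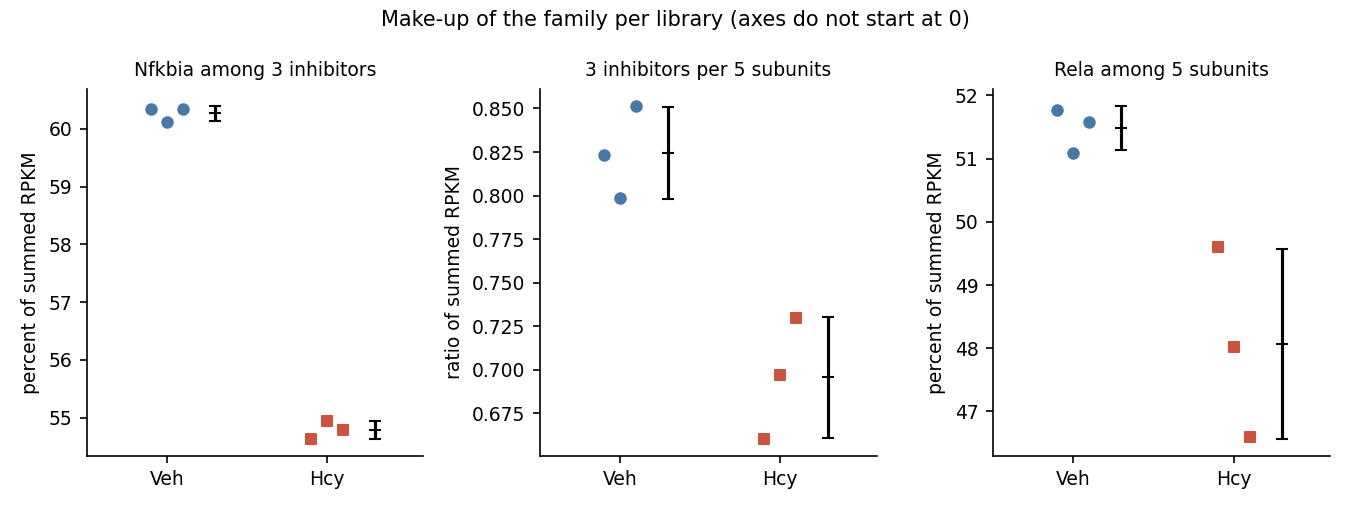
Per library, the share of Nfkbia in the summed RPKM of 3 inhibitors, the ratio of summed inhibitor to summed subunit RPKM, and the share of Rela in the summed RPKM of 5 subunits, with the mean ± SD beside the points of each group. Axes do not start at 0. The ratio counts Nfkb1 and Nfkb2 as subunits only. In all 3 panels the Hcy libraries (squares) lie below the Veh libraries (circles).

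Upstream of the members, 11 receptors that signal to NF-κB were tested, and 2 passed, both lower in Hcy, where 2.34% of all genes passed and 1.01% were lower. Tnfrsf1b, which encodes the TNF receptor TNFR2, fell from 22.8 to 16.0 CPM on average, a log2 fold change of -0.51 ± 0.09 (SE, edgeR adjusted p = 0.0288). Tlr2, which encodes a receptor for bacterial lipopeptides, fell from 18.8 to 13.2 CPM, a log2 fold change of -0.51 ± 0.11 (SE, edgeR adjusted p = 0.0489). With the replicate number as a block, neither passed (adjusted p = 0.0525 and 0.0793), and neither passed when any single library other than Veh replicate 3 was left out. Without Veh replicate 3 both passed (adjusted p = 0.0207 and 0.0387), among 3 receptors in all, in the fit in which 6.67% of all genes passed. The log2 fold changes under the block were -0.51 for both, and with single libraries left out they lay between -0.53 and -0.48 for Tnfrsf1b and between -0.57 and -0.46 for Tlr2. Tnfrsf12a, the receptor of TWEAK, had the next smallest p, and its log2 estimate was -0.19 (edgeR adjusted p = 0.358). The main TNF receptor gene Tnfrsf1a had 145 CPM in Hcy and 136 CPM in Veh.

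Of 29 adaptor and kinase genes tested, 0 passed in edgeR and 0 in DESeq2, against 2.34% and 4.19% of all genes. An unadjusted p of at most 0.05 was found for 2 of the 29 and for 13.4% of all genes. The list's median log2 fold change was -0.06. The smallest p belonged to Traf2, an adaptor of TNF receptors, to Rbck1, a subunit of the linear ubiquitin ligase, and to Malt1, a paracaspase. Their log2 fold changes were -0.24, -0.19 and -0.24 (edgeR adjusted p = 0.32, 0.347 and 0.466). The IKK genes Ikbkb, Chuk and Ikbkg had log2 fold changes of 0.14, -0.13 and -0.21, and none of these 3 passed. Without Veh replicate 3 those of Ikbkb and Ikbkg were 0.0799 and -0.37, and that of Rbck1 was -0.12, also without passing. Without Veh replicate 2 those of Chuk and Ikbkg were -0.0601 and -0.0434.

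Among 18 other regulators tested, 0 passed in edgeR, 1 passed in DESeq2 and 2 had an unadjusted p of at most 0.05. The shares of all genes were 2.34%, 4.19% and 13.4%. The median log2 fold change was -0.01. Nfkbiz encodes IκBζ, an inducible nuclear IκB that acts as a coactivator, and had 562, 600 and 772 counts in Hcy and 576, 498 and 442 in Veh. Its CPM averaged 42.2 in Hcy and 32.2 in Veh without overlap, a log2 fold change of 0.39 ± 0.09 (SE, edgeR adjusted p = 0.0644), and it was the regulator that passed in DESeq2 (adjusted p = 0.021). Without Veh replicate 3 it passed in edgeR too, at 0.36 (adjusted p = 0.0352). Cyld, a deubiquitinase that restrains the pathway, was at -0.30 (adjusted p = 0.311), and Otud7b, a deubiquitinase of the noncanonical arm, at -0.19 (adjusted p = 0.42).

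Downstream, 40 of 45 known NF-κB target genes in the table had enough counts to be tested, and 9 passed, 5 higher and 4 lower in Hcy, where 2.34% of all genes tested passed, 1.32% higher and 1.01% lower. This list, like the others, was chosen with earlier results of these data known. It holds Vcam1 and Mmp9, which the paper names among its changed genes, so the contrast with all genes is descriptive only. The list's median log2 fold change was 0.02, and 21 of the 40 were above 0. The 5 that rose were the adhesion genes Sele and Vcam1, the chemokine genes Cxcl10 and Ccl5, and the protease gene Mmp9. Sele, which encodes E-selectin, rose from 21.5 to 42.5 CPM on average, with 580, 676 and 680 counts in Hcy and 332, 417 and 262 in Veh, a log2 fold change of 0.99 ± 0.14 (SE, edgeR adjusted p = 0.011). Cxcl10 rose by 0.63 on the log2 scale (adjusted p = 0.0196) and Ccl5, which is named outside the rule after its value was seen, by 0.68 (adjusted p = 0.0261). Vcam1 and Mmp9 had log2 fold changes of 1.16 and 3.41 (adjusted p = 0.0129 and 0.00136).

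The 4 targets that fell were Bcl2l1 and Tnfaip8, which restrain cell death, Gadd45b, a stress-response gene, and Tnfaip2, a TNF-induced gene. Their log2 fold changes were -0.44, -0.72, -0.59 and -0.62 (edgeR adjusted p = 0.012, 0.0133, 0.0114 and 0.00368). Mmp9 and Tnfaip2 passed in all 13 alternatives run, while the calls of the others depended on the libraries. Their log2 fold changes kept their sign when libraries were left out, and ran from 0.88 to 1.17 for Sele, 1.03 to 1.26 for Vcam1, 0.58 to 0.71 for Cxcl10 and 0.59 to 0.78 for Ccl5. Bcl2l1 ranged from -0.46 to -0.42, Tnfaip8 from -0.76 to -0.64 and Gadd45b from -0.66 to -0.54. Of the 6 fits that each left out a library, Gadd45b passed in 4, Sele, Bcl2l1 and Tnfaip8 in 3, Vcam1 in 2, and Cxcl10 and Ccl5 in 1, the one without Veh replicate 3. The count of passing targets was 3 without Hcy replicate 1 and 3 without Hcy replicate 2, 2 without Hcy replicate 3, and 16 without Veh replicate 3. The count over all genes tested moved in the same direction in these fits, from 341 to 80, 95, 81 and 957.

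Other textbook endothelial targets did not pass with all libraries in edgeR. Icam1, an adhesion molecule for leukocytes, was at 287 CPM in Hcy and 285 CPM in Veh, a log2 fold change of 0.01 (edgeR adjusted p = 0.981) whose sign turned on leaving out any of 3 single libraries. Ccl2, a monocyte chemokine, averaged 407 CPM in Hcy and 326 CPM in Veh without overlap, a log2 fold change of 0.32 (adjusted p = 0.0992). It passed in DESeq2 (adjusted p = 0.0158) and in edgeR without Veh replicate 3, at 0.40 (adjusted p = 0.00275). Ptgs2, which encodes COX-2, stood at 12.8 and 13.5 CPM. Il6 had 3 to 12 counts per library in either group. Tnf, Il1a and Il1b had 0 counts in each library, where 3 counts, taken as the floor, correspond to 0.178 to 0.215 CPM.

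**Figure D4:**
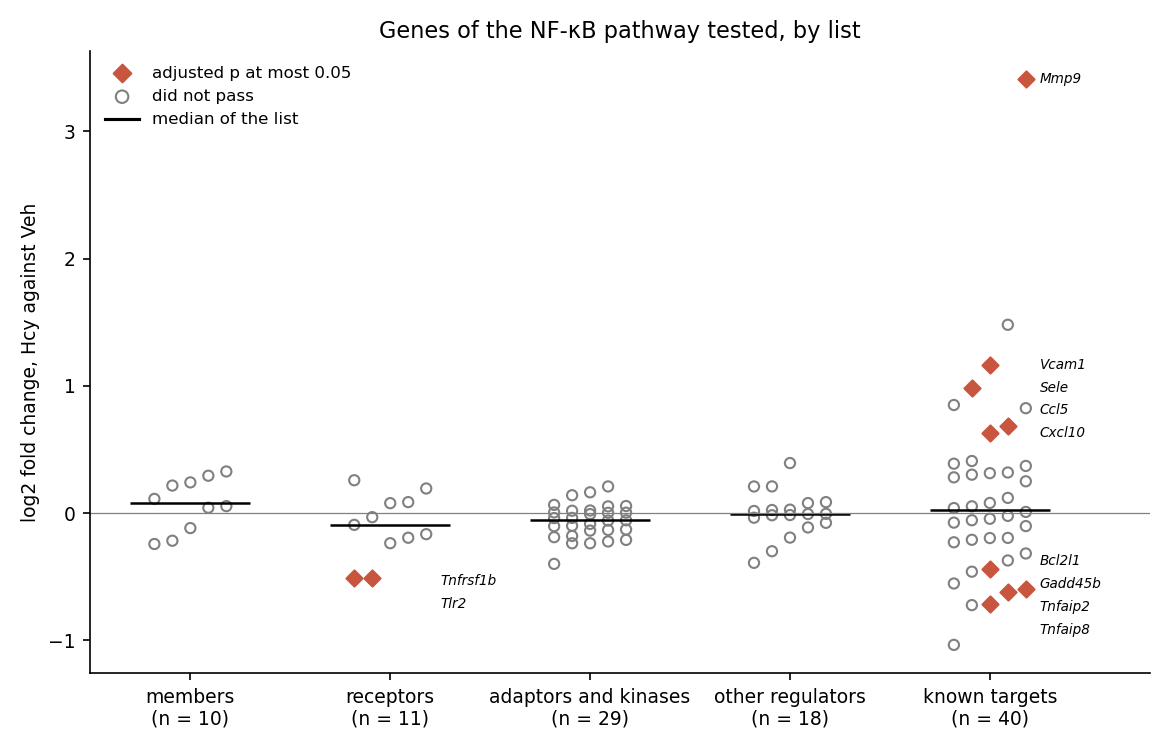
Log2 fold change of each tested gene, Hcy against Veh, for the 10 members, 11 receptors, 29 adaptors and kinases, 18 other regulators and 40 known targets, with the median of each list as a line. Filled diamonds passed at an adjusted p of at most 0.05 and are named, 2 receptors and 9 targets, and open circles did not pass.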

How the data were processed

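Poly(A) RNA of 6 libraries was sequenced. The authors deposited 1 table of raw counts per gene for all libraries, and it also lists each gene's length in bases. A second deposited table holds their own DESeq2 comparison (normalized values, fold changes and p-values) and was not used here. The submitters' processing notes name fastp, HISAT2 2.2.1, StringTie 2.2.3, Cufflinks, featureCounts 2.0.6 and DESeq2 1.42.0. The strand setting of counting is not given in the sources used here, so reads of a gene and of one overlapping it cannot be told apart.

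Counts were normalized by TMM and tested in edgeR 4.0.16 (R 4.3.3, limma 3.58.1) by the quasi-likelihood test over the 14603 genes whose summed count was 10 or more. P-values were adjusted over all of them by Benjamini-Hochberg, and a gene passed at 0.05. RPKM is the normalized CPM per kilobase of deposited gene length. Totals of 14024997 to 16764584 counts put the floor of 3 counts at 0.178 to 0.215 CPM. The scripts were tested on simulated data. DESeq2 1.42.0, other scalings and filters, a replicate block and leaving out each library were the alternatives. For single genes a prior count of 2 in place of 0.125 was also run, which alters fold changes but not p-values.

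Named genes were the members, the passing genes of each list (the 8 with the smallest p where more passed), further genes by p up to 3 a list, and 7 textbook targets. Ccl5, Birc2, Tnfrsf1a, Ikbkb, Chuk, Ikbkg, Il1a, Il1b, Map3k7 and the cell type markers with values were named outside this rule, after their values were seen. The members and lists were chosen with earlier results of these data known. Promoters came from RefSeq (GRCr8).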

Additional observations from a re-analysis of the deposited data

How the results depend on the processing

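Of all genes tested, 341 passed in the edgeR fit, 612 in DESeq2, 71 when a log2 change of 1 or more in size was also required, and 1955 at an unadjusted p of at most 0.05, and leaving out single libraries gave 80 to 957. Members passing numbered 0, with 5 at an unadjusted p of at most 0.05 and 0 to 2 with single libraries left out. Known targets passing numbered 9, with 15 in DESeq2 and 2 to 16 with single libraries left out. Receptors passing numbered 2, with 0 to 3 on leaving out libraries. Other regulators passing numbered 0, with 1 in DESeq2, 1 without the count filter and 0 to 1 on leaving out libraries. The members' median log2 fold change ranged from 0.07 to 0.12 when libraries were left out. The genes run under all alternatives included the tested genes named outside the rule, but not the cell type markers. Of the genes run, 6 changed sign, each on leaving out a library. Rela ranged from -0.0186 to 0.0791. Nfkbib ranged from -0.0168 to 0.12. Icam1 ranged from -0.0647 to 0.10. Ptgs2 ranged from -0.22 to 0.10. Birc2 ranged from -0.0258 to 0.0985. Map3k7 ranged from -0.57 to 3.13. The causes were not tested. With 3 libraries a group, the members' log2 estimates carried standard errors of 0.08 to 0.21, and Rel, at 34 to 52 counts, was the least precise.

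Deviations of same-numbered libraries from their group means correlated at 0.0237, 0.166 and 0.0581 across genes. Those of differently numbered libraries correlated at values from -0.184 to 0.129. With 3 libraries a group, these values cannot tell whether the replicate numbers paired the libraries. A fit with this replicate block passed 298 genes, 0 members, 0 receptors and 9 known targets.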

Other observations

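Map3k7, which encodes the kinase TAK1 upstream of IKK, varied more within groups than between them, with 118, 79 and 6 counts in Hcy and 190, 12 and 4 in Veh. It was singled out after its values were seen.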
